A study of Rattus norvegicus with 4 samples.

Results

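Translation factors are the proteins that bring a ribosome to the start codon of an mRNA (initiation) and carry it along the coding sequence (elongation). Their genes were taken by symbol, as those whose names begin with Eif1 to Eif6, Eef1 or Eef2, without the eIF2 kinases (Eif2ak genes). Of 23360 gene symbols, 61 matched, and 59 of them had a mean of at least 1 TPM, the number of transcripts of a gene per 1000000 transcripts, and are described here, out of 11960 genes that met the same minimum. The other two, Eif2s3y and Eif4ebp1, were listed at 0 in all 4 cultures. The name rule also takes in genes that act on the factors, such as the eIF4E-binding proteins, the kinase of eEF2 and the methyltransferases of eEF1A. Eif3e and Eif3h were not analysed here under those symbols, and Eif3el1 is a symbol that the RefSeq gene table also lists as a synonym of Eif3e.

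The cells were INS-1 832/3, a clonal rat insulinoma line that carries a human insulin gene and secretes insulin in response to glucose. All 4 samples were kept in RPMI-1640 with fetal bovine serum and Geneticin, at passage 3, and RNA was taken after 5 days. In the monolayer group the 2 cultures were grown as a standard monolayer, and in the 3D group the 2 cultures were bioprinted in GelXA LAMININK 411 hydrogel. The labels call the cultures biological replicates, and the p-values describe the spread between these cultures of a single line. Of 11 beta-cell markers, all 11 were above 1 TPM on average, with Ins1 between 114003 and 137822 TPM, and the 3 acinar markers Cpa1, Prss1 and Cela1 were listed at 0. Of the endothelial markers, Cdh5 was at 0, Pecam1 was not listed, and Kdr was at 0.965 and 1.00 TPM in monolayer and 1.27 and 1.48 in 3D culture. The leukocyte marker Ptprc was at 0 and Cd68 was between 0.516 and 1.45 TPM, and the summed fibroblast markers were at 1.91 and 1.89 TPM in monolayer and 2.35 and 2.26 in 3D culture, nearly all of it Pdgfra. Gcg, the glucagon gene of alpha cells, was at 41.9 and 73.8 TPM in monolayer and at 124 and 155 TPM in 3D culture. The other islet hormone genes listed, Sst and Ppy, were below 1 TPM in every culture. Sst was at 0.086 and 0.094 TPM in monolayer and 0.24 and 0.20 in 3D culture. Ppy was at 0.14 and 0.30 TPM in monolayer and at 0 in both 3D cultures. The part of these markers in the results was not tested. In bulk RNA, fewer cells of a kind and less RNA per cell cannot be told apart.

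As background, initiation starts when eIF2 carries the initiator methionyl-tRNA, as a ternary complex with GTP, to the small ribosomal subunit together with eIF1, eIF1A, eIF3 and eIF5. The eIF4F complex, made of the cap-binding protein eIF4E, the scaffold eIF4G and the helicase eIF4A, brings in the mRNA, and eIF2B reloads eIF2 with GTP. During elongation eEF1A delivers aminoacyl-tRNA, eEF1B recharges eEF1A, eEF2 moves the ribosome by a codon, and eIF5A helps at difficult peptide bonds. In beta cells the supply of proinsulin depends on translation, and glucose is known to raise it through these factors.

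Differences between the 2 kinds of culture were small, and more of the factors that passed the test were lower in 3D culture than higher. In limma on log2(TPM + 1), after scaling between samples, 3 of the 59 genes rose and 13 fell at an adjusted p below 0.05, and 43 did not pass. The called share was 27.1%, against 38.0% of all 11960 genes tested. Rises made up 5.08% of the members and 18.5% of all genes, and falls 22.0% and 19.5%. The median log2 fold change was -0.10, against -0.003 over all genes. Every member lay between -0.43 and 0.40, so none moved by more than 0.5 on the log2 scale, which 14.6% of all genes did. The 2 groups did not overlap in 48 of the 59 genes (81.4%, against 75.5% of all genes), with 3D culture higher in 15 and lower in 33 of them, where 37.3% and 38.2% of all genes stood apart in these directions. On TPM without scaling, 5 genes rose and 12 fell. With either 3D replicate left out, 0 members passed in limma and 14 had an unadjusted p below 0.05, and of all genes 136 passed without 3D replicate 1 and 1037 without 3D replicate 2. With monolayer replicate 2 left out, 11 members passed. A two-sided exact permutation test of a single gene with 2 cultures against 2 cannot give a p below 0.33, and the calls use a spread that limma pools over all genes.

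**Figure D1:**
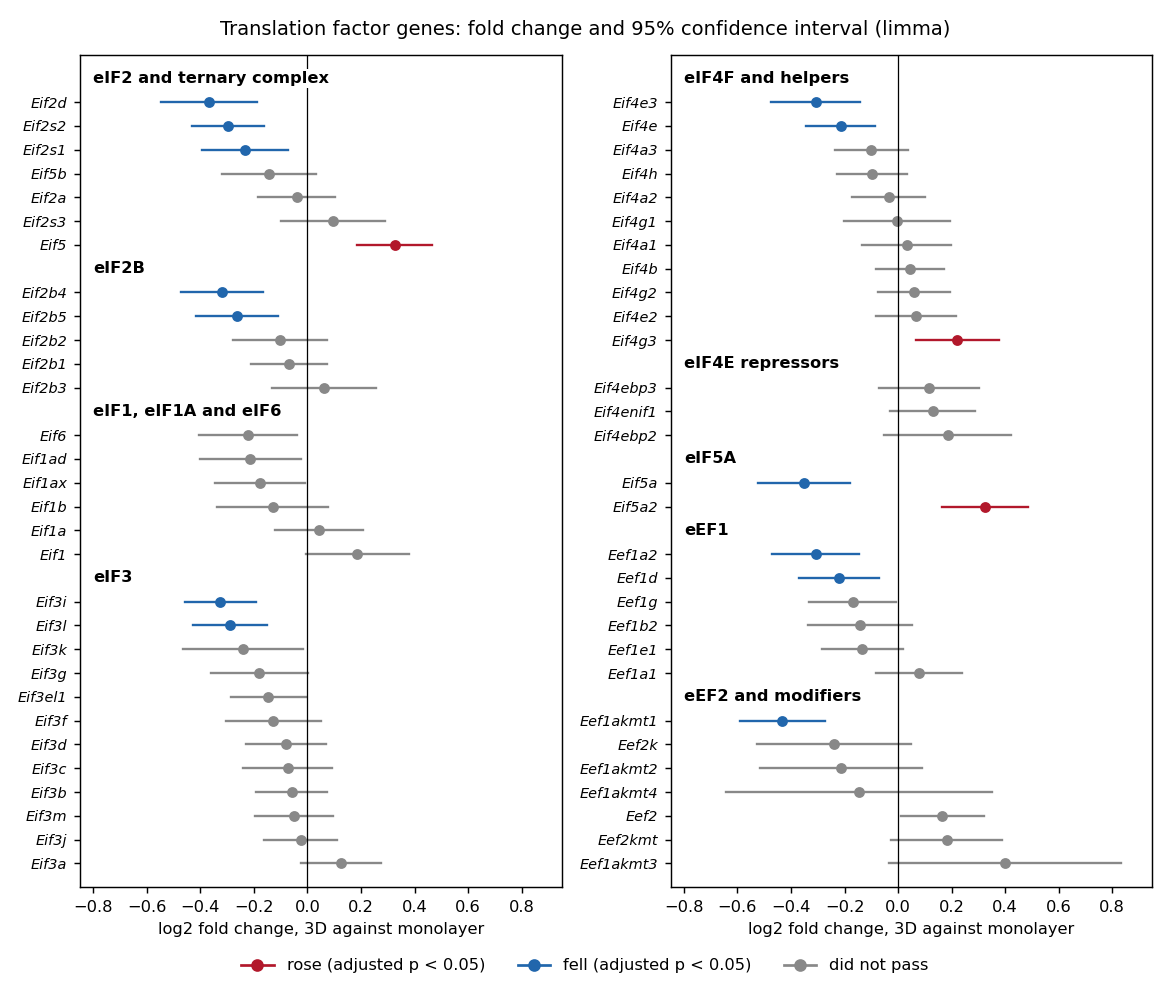
Log2 fold change of each of the 59 translation factor genes in 3D culture against monolayer (x axis, points) with the 95% confidence interval from limma (lines), grouped by role. Red marks the 3 genes that rose, blue the 13 that fell and grey the 43 that did not pass, and the eIF4E repressors are all to the right of 0 with intervals that include 0.

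The levels of the factors spanned from 2.19 to 1820.2 scaled TPM on average, with a median of 96.7. TPM are values per transcript length, so levels of different genes can be set side by side. The 5 most abundant were Eef1a1, Eef2, Eef1g, Eif5a and Eif4a1, which held 49.6% of the summed TPM of all members. The sum over all 59 genes was 11858 and 12235 scaled TPM in the monolayer replicates and 11819 and 11408 in the 3D replicates, the 3D cultures being lower. As deposited, without scaling, the sums were 11984, 11747, 11909 and 11668 TPM and the groups overlapped, so the order of the sums depends on the scaling.

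**Figure D2:**
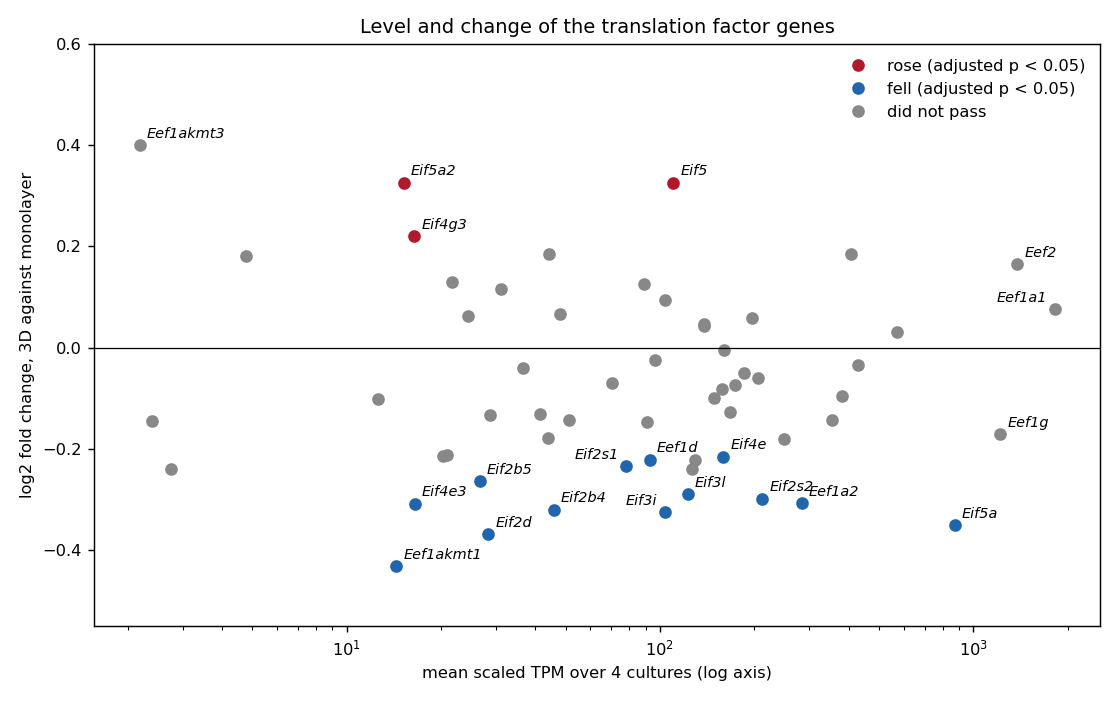
Mean scaled TPM over the 4 cultures (x axis, log scale) against the log2 fold change in 3D culture (y axis) for the 59 genes, with the genes that passed and the most abundant ones named. Genes that fell are found from 14.4 scaled TPM (Eef1akmt1) up to 874 scaled TPM (Eif5a), and the genes that rose are Eif5, Eif5a2 and Eif4g3.

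Start sequences were looked at because mRNAs of ribosomal proteins and several elongation factors are known to begin with a C and a run of pyrimidines, the TOP start through which mTORC1 and LARP1 control their translation. RefSeq promoters of the GRCr8 build, from 250 bases before to 50 after an annotated start, were found for 54 of the 59 genes, with 57 starts. The genes without an entry were Eef1akmt3, Eef1d, Eif3el1, Eif4b and Eif4e3. A C followed by at least 4 bases that are C or T, within 5 bases of the start, was found at 15 of the 57 starts (26.3%) and at 17.0% of all 33469 promoters. The next lines give 30 bases around the start of 4 such genes and of Eef1a2, which has none, with the pyrimidine run in capitals and, in Eef1a2, the annotated first base.
Eef1a1 (chr8:88225050-88225079, minus strand): ttggacgttCTTTTTCgcaacgggtttgcc
Eef1b2 (chr9:72074081-72074110, plus strand): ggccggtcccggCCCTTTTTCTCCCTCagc
Eif2s3 (chrX:62933680-62933709, minus strand): cagccgagcattttCCTTTTCTCTCTgagc
Eif3f (chr1:172369052-172369081, plus strand): cccttccgttctagCCTCTCTCTTTCTCgg
Eef1a2 (chr3:188652614-188652643, minus strand): gggtacatctCtgcagctgcgtcctctcgg
The genes printed are examples, and no contrast between them was tested. None of the 4 with a printed run passed the test between cultures, and Eef1a2 fell. Of the 15 genes with such a start, 2 rose (Eif4g3 and Eif5a2), 2 fell (Eef1akmt1 and Eif2b5) and 11 did not pass. Their median log2 fold change was -0.05. Of the 39 without, 1 rose, 9 fell and 29 did not pass, with a median of -0.10. Over all genes tested, 18.5% rose and 19.5% fell. The split rests on annotated starts, and the starts used in these cells were not measured. A run at another start would be missed, and the genes without include the elongation factors Eef2 and Eef1g.

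The sequence CACGTG, which reads the same on both strands and is bound by Myc and related factors, was found in 12 of the 57 promoters (21.1%) and in 6.42% of all promoters of that length. It stands in the promoters of both eIF5A genes, which moved in opposite directions, and of Eif4e, whose pair of such sites is a textbook example of a Myc target. These windows of 30 bases have the motif in capitals.
Eif5a (chr10:55143410-55143439, minus strand): aaggggcggggtCACGTGtgtgcgtcattg
Eif5a2, first (chr2:113657626-113657655, plus strand): actaatccgcagCACGTGgggttgccaggg
Eif5a2, second (chr2:113657651-113657680, plus strand): cagggcgagcttCACGTGactgggcgggac
Eif4e, first (chr2:229740504-229740533, plus strand): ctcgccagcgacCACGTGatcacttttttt
Eif4e, second (chr2:229740661-229740690, plus strand): ggacacgtccgtCACGTGggcaggagccgg
Eef2 (chr7:9189297-9189326, minus strand): cacccgcgccgtCACGTGacgtgcccaacc
Of the 12 genes with CACGTG, 1 rose (Eif5a2), 2 fell (Eif4e and Eif5a) and 9 did not pass. Their median log2 fold change was -0.11, against -0.09 in the 42 without. Rises made up 18.5% and falls 19.5% of all genes tested. TGATGNAAT, the kind of site bound by ATF4 with C/EBP proteins, was found on either strand in 0 of the 57 promoters and in 1.09% of all. A match is a stretch of letters and not a measured binding site.

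Of the 3 subunits of eIF2, alpha and beta fell and gamma did not pass. Eif2s2, the beta subunit, was at 232 and 235 scaled TPM in monolayer and at 194 and 186 in 3D culture, and fell by 0.30 on the log2 scale (standard error, SE, 0.054, limma adjusted p = 0.0121). Eif2s1, the alpha subunit that the stress kinases phosphorylate, was at 81.0 and 87.8 scaled TPM in monolayer and 73.1 and 70.1 in 3D culture. It fell by 0.23 (SE 0.064, limma adjusted p = 0.0373), with an adjusted p of 0.0647 when limma was run without an intensity trend. Eif2s3, the gamma subunit that binds GTP and the tRNA, was at 107 and 94.7 scaled TPM in monolayer and at 111 and 104 in 3D culture. Its groups overlapped, and the 95% interval of its log2 fold change ran from -0.10 to 0.29. For alpha and beta, both 3D cultures lay below both monolayer cultures, as in 38.2% of all genes.

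Eif5 had one of the 3 rises. It encodes the protein that makes eIF2 hydrolyse its GTP at the start codon. Its level was 99.8 and 96.2 scaled TPM in monolayer and 126 and 120.5 in 3D culture, which is a log2 change of 0.33 (SE 0.056, limma adjusted p = 0.0109). Leaving out any 1 of the 4 cultures kept the log2 fold change of Eif5 between 0.30 and 0.36. Eif5b, the GTPase that joins the ribosomal subunits, did not pass, with a log2 change of -0.14 (limma adjusted p = 0.156).

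Eif2d and Eif2a encode factors that can place initiator tRNA without eIF2. Eif2d was at 31.5 and 32.5 scaled TPM in monolayer and at 23.3 and 25.8 in 3D culture, and fell by 0.37 on the log2 scale (SE 0.072, limma adjusted p = 0.0151). Eif2a had 36.8 and 37.7 scaled TPM in monolayer and 35.4 and 36.9 in 3D culture, with overlapping groups. Of the 7 genes tested for eIF2 and the ternary complex, 3 fell, 1 rose and 3 did not pass. The called share was 57.1%, against 38.0% of all genes. Falls made up 42.9%, against 19.5%, and rises 14.3%, against 18.5%.

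In eIF2B, the exchange factor of eIF2, 2 of the 5 subunits fell and 3 did not pass. The called share of 40.0% is near the 38.0% of all genes, of which 19.5% fell. Eif2b4, the delta subunit, was at 50.6 and 51.4 scaled TPM in monolayer and at 39.3 and 42.1 in 3D culture, which is a log2 change of -0.32 (SE 0.061, limma adjusted p = 0.0140). Eif2b5, the epsilon subunit that carries the exchange activity, was at 29.4 and 28.9 scaled TPM in monolayer and at 23.5 and 24.8 in 3D culture. It fell by 0.26 (SE 0.061, limma adjusted p = 0.0238), but the adjusted p for unscaled TPM was 0.0640. Both 3D cultures were below both monolayer cultures for these subunits, as in 38.2% of all genes. Eif2b1, the most abundant subunit and the one named alpha, had 71.9 and 72.7 scaled TPM in monolayer and 70.7 and 67.0 in 3D culture, and the interval of its log2 fold change ran from -0.21 to 0.071. Summed over the 5 subunits, eIF2B was at 188 and 191 scaled TPM in monolayer and at 172 and 169 in 3D culture.

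None of the 6 genes for eIF1, eIF1A, their relatives and eIF6 passed in limma, and 3 of them had an unadjusted p below 0.05. Eif1, which guards the choice of start codon, was at 369 and 394 scaled TPM in monolayer and at 459 and 409.9 in 3D culture. Both 3D cultures of Eif1 were higher, as in 37.3% of all genes, with a log2 change of 0.19 (SE 0.077, limma adjusted p = 0.106). On TPM without scaling the adjusted p of Eif1 was 0.0367. Its paralogue Eif1b was at 40.2 and 46.7 scaled TPM in monolayer and at 39.7 and 39.2 in 3D culture. Eif1 held 90.2% and 89.4% of the TPM of this pair in monolayer and 92.0% and 91.3% in 3D culture. Eif6, which keeps the large subunit from joining too early, had a log2 change of -0.22 (limma adjusted p = 0.0614). Eif1a and Eif1ax are listed apart, and reads from such similar genes can be divided between them by the quantification.

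In eIF3, the large scaffold on the small ribosomal subunit, 2 of the 12 genes tested fell and 10 did not pass. The falls made up 16.7%, against 19.5% of all genes, and the called share over all genes was 38.0%. The log2 fold change was below 0 in 11 of the 12 eIF3 genes, with a median of -0.10, which is that of all translation factors. That of Eif3j turned from -0.025 to 0.018 on unscaled TPM. Eif3i was at 116 and 115 scaled TPM in monolayer and at 93.4 and 90.3 in 3D culture, and fell by 0.32 on the log2 scale (SE 0.053, limma adjusted p = 0.00984). Eif3l was at 132 and 138 scaled TPM in monolayer and at 108 and 112 in 3D culture, and fell by 0.29 (SE 0.055, limma adjusted p = 0.0143). These subunits sit in different parts of the complex, eIF3i with eIF3b and eIF3g, and eIF3l with eIF3k. Eif3g, the most abundant eIF3 gene that did not pass, had 251 and 280.3 scaled TPM in monolayer and 239 and 229 in 3D culture (log2 fold change -0.18, limma adjusted p = 0.0999). Eif3k had a log2 change of -0.24 (limma adjusted p = 0.0845), and 1 of its 2 listed transcripts was at 0 in 3D replicate 1 and between 14.3 and 15.6 TPM in the other cultures. Eif3a, the largest subunit, was the only eIF3 gene with a log2 fold change above 0, at 0.13 (limma adjusted p = 0.147). Summed over the 12 genes, eIF3 was at 1816 and 1873 scaled TPM in monolayer and at 1714 and 1672 in 3D culture.

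Among the 11 genes of eIF4F and its helpers, 2 fell, 1 rose and 8 did not pass, and the median log2 fold change was -0.004. The called share was 27.3%, against 38.0% of all genes. Among the cap-binding proteins, Eif4e and Eif4e3 fell and Eif4e2 did not pass. Eif4e, the main cap-binding protein, was at 171 and 171 scaled TPM in monolayer and at 149 and 145 in 3D culture, and fell by 0.21 on the log2 scale (SE 0.052, limma adjusted p = 0.0266). Without an intensity trend its adjusted p was 0.0541. Eif4e3, another cap-binding relative of eIF4E, was at 18.2 and 18.6 scaled TPM in monolayer and at 15.1 and 14.2 in 3D culture, and fell by 0.31 (SE 0.066, limma adjusted p = 0.0194). Eif4e2, a cap-binding protein that represses initiation, had 45.3 and 48.2 scaled TPM in monolayer and 48.6 and 49.5 in 3D culture, and did not pass (limma adjusted p = 0.396). Eif4e held 72.9% and 71.9% of the TPM of the 3 genes in monolayer and 70.1% and 69.5% in 3D culture, while Eif4e2 held 19.3% and 20.3% against 22.8% and 23.7%.

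Of the scaffold genes, Eif4g3 rose, and Eif4g1 and Eif4g2 did not pass. Eif4g1, the main scaffold, was at 172 and 149 scaled TPM in monolayer and at 160.2 and 159 in 3D culture, with a log2 change of -0.004 and an interval from -0.20 to 0.19. Eif4g2, a relative that lacks the eIF4E-binding part, was at 194 and 192 scaled TPM in monolayer and at 206 and 197 in 3D culture (limma adjusted p = 0.416). Eif4g3, the third scaffold gene, rose from 15.3 and 15.0 to 17.8 and 17.8 scaled TPM, a log2 change of 0.22 (SE 0.062, limma adjusted p = 0.0389). The call of Eif4g3 was lost without a filter on low values (adjusted p 0.0792) and with any 1 culture left out, monolayer replicate 1 (0.0552) and monolayer replicate 2 (0.0867) included. It held 4.01% and 4.19% of the TPM of the 3 scaffold genes in monolayer and 4.64% and 4.76% in 3D culture.

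Eif4a1 and Eif4a2 encode the helicase of eIF4F, and Eif4a3 a relative that works in the exon junction complex. Eif4a1 was at 544 and 582 scaled TPM in monolayer and at 593 and 558 in 3D culture, and its groups overlapped. Eif4a2 was at 434 and 435 scaled TPM in monolayer and at 432 and 417 in 3D culture, with an interval of the log2 fold change from -0.17 to 0.10. Eif4a3 was at 151 and 156 scaled TPM in monolayer and at 146 and 141 in 3D culture (limma adjusted p = 0.191). None of the helicase genes passed.

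None of the eIF4E repressors passed the test. Eif4ebp2, which encodes a protein that holds eIF4E until mTORC1 phosphorylates it, was at 44.8 and 38.3 scaled TPM in monolayer and at 49.6 and 44.9 in 3D culture, which is a log2 change of 0.18 (SE 0.095, limma adjusted p = 0.172). Eif4ebp3 was at 29.4 and 29.96 scaled TPM in monolayer and at 34.2 and 30.4 in 3D culture (limma adjusted p = 0.255). Eif4enif1, which carries eIF4E into the nucleus, had a log2 change of 0.13 (limma adjusted p = 0.159). For all 3 genes both 3D cultures lay above both monolayer cultures, as in 37.3% of all genes, and by little in Eif4ebp2 and Eif4ebp3. None of the 3 had an unadjusted p below 0.05, and the related Eif4ebp1 was listed at 0.

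The eIF5A genes moved in opposite directions. Eif5a, which encodes a protein that carries the modified amino acid hypusine, was at 936 and 1024 scaled TPM in monolayer and at 772 and 763 in 3D culture. It fell by 0.35 on the log2 scale (SE 0.069, limma adjusted p = 0.0151), and it was the only 1 of the 5 most abundant factors that passed. Eif5a2 rose from 13.7 and 13.1 to 17.0 and 17.1 scaled TPM, a log2 change of 0.33 (SE 0.065, limma adjusted p = 0.0156). Eif5a2 held 1.44% and 1.26% of the TPM of the pair in monolayer and 2.16% and 2.19% in 3D culture, so Eif5a made up nearly the whole of the pair in every culture. With any 1 culture left out, the value ran from -0.42 to -0.29 for Eif5a and from 0.29 to 0.35 for Eif5a2.

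Of the eEF1A genes, Eef1a2 fell and Eef1a1 did not pass. Eef1a1, the most abundant translation factor gene, was at 1748 and 1795 scaled TPM in monolayer and at 1887 and 1851 in 3D culture, and did not pass (log2 fold change 0.077, SE 0.064, limma adjusted p = 0.368). Eef1a2, the form known from neurons, muscle and endocrine cells, was at 299.7 and 329 scaled TPM in monolayer and at 251 and 256 in 3D culture. It fell by 0.31 on the log2 scale (SE 0.065, limma adjusted p = 0.0185). Eef1a2 held 14.6% and 15.5% of the TPM of the pair in monolayer and 11.8% and 12.1% in 3D culture, and the difference between the changes of the 2 genes was not tested.

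**Figure D3:**
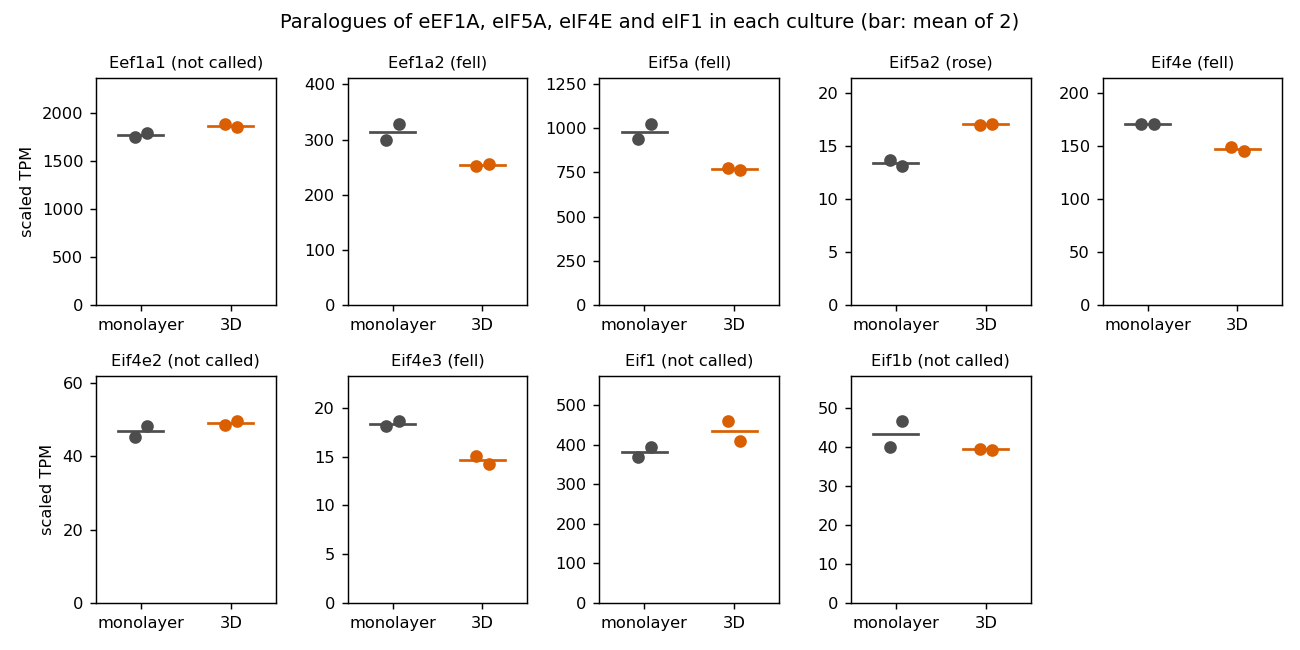
Scaled TPM of 9 paralogues in each culture (y axes from 0, 1 panel a gene), with monolayer in grey, 3D culture in orange and a line at the mean of the 2 cultures. Eif5a lies lower and Eif5a2 higher in 3D culture, and Eef1a2, Eif4e and Eif4e3 lie lower, while Eef1a1, Eif4e2, Eif1 and Eif1b did not pass.

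Of the genes for the exchange complex of eEF1A, Eef1d fell, and Eef1g and Eef1b2 did not pass. Eef1d was at 96.3 and 103 scaled TPM in monolayer and at 86.1 and 84.9 in 3D culture, and fell by 0.22 on the log2 scale (SE 0.059, limma adjusted p = 0.0353). Without an intensity trend its adjusted p was 0.0643. Eef1g, the scaffold of this complex, was at 1270.2 and 1309 scaled TPM in monolayer and at 1181 and 1113 in 3D culture, with a log2 change of -0.17 (limma adjusted p = 0.0897). Eef1b2, an exchange subunit, had a log2 change of -0.14 (limma adjusted p = 0.194). Eef1e1, which belongs to the complex of tRNA synthetases instead, had a log2 change of -0.13 (limma adjusted p = 0.131).

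Eef2, which moves the ribosome along the mRNA, was at 1292 and 1316 scaled TPM in monolayer and at 1489.7 and 1436 in 3D culture. Both 3D cultures were higher, as in 37.3% of all genes, and the log2 fold change of 0.17 (SE 0.062) had an adjusted p of 0.0852 in limma. With unscaled TPM the adjusted p was 0.0214, and with only genes of a mean TPM of at least 5 it was 0.0480. Eef2k, the kinase that switches eEF2 off, was low, at 2.83 and 3.29 scaled TPM in monolayer and 2.58 and 2.30 in 3D culture (limma adjusted p = 0.151). Eef1akmt1, a methyltransferase of eEF1A, had the largest fall of all members, from 16.8 and 16.6 to 12.1 and 12.2 scaled TPM, a log2 change of -0.43 (SE 0.063, limma adjusted p = 0.00781). Eef1akmt1 and Eif3i were the 2 members with an adjusted p below 0.01 in limma. Eef1akmt3, another such enzyme, had the largest positive log2 fold change, 0.40, at 1.36 to 2.84 scaled TPM, and did not pass (limma adjusted p = 0.118), while without monolayer replicate 1 its adjusted p was 0.0397. Of the 7 genes for eEF2 and the modifying enzymes, 1 fell and 6 did not pass, a called share of 14.3% against 38.0% of all genes.

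Of the 59 genes, 13 had at least 2 listed transcripts with a mean of at least 1 TPM, which gave 35 transcripts. The share of the gene's TPM did not overlap between the groups in 19 of them (54.3%), near the 50.7% of 5494 transcripts counted in the same way over all genes. A transcript was picked where the groups did not overlap and the mean shares differed by at least 10 percentage points, which took 1 transcript, ENSRNOT00000026646.5 of Eif4e2, and its size rests on a single library. Its share was 70.3% and 68.8% in monolayer and 65.9% and 37.6% in 3D culture, and in 3D replicate 2 another transcript, ENSRNOT00000085476.1, was at 14.5 TPM and at 0 in the other 3 cultures. The mean share of that second transcript differed by 14.3 points, but its groups overlapped at 0. Smaller shifts without overlap between the groups were seen in, among others, Eif4h, Eif4a2 and Eif4e, which were chosen after their values were seen. Eif4h encodes a helper of the helicase, and its transcript ENSRNOT00000081084.1 held 18.8% and 17.0% in monolayer and 23.5% and 23.5% in 3D culture. In Eif4a2, ENSRNOT00000089294.1 held 17.1% and 14.7% in monolayer and 20.7% and 21.0% in 3D culture. In Eif4e, ENSRNOT00000093355.1 was at 63.1 and 63.1 TPM in monolayer and at 49.6 and 49.9 TPM in 3D culture as deposited, and single transcripts were not tested.

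**Figure D4:**
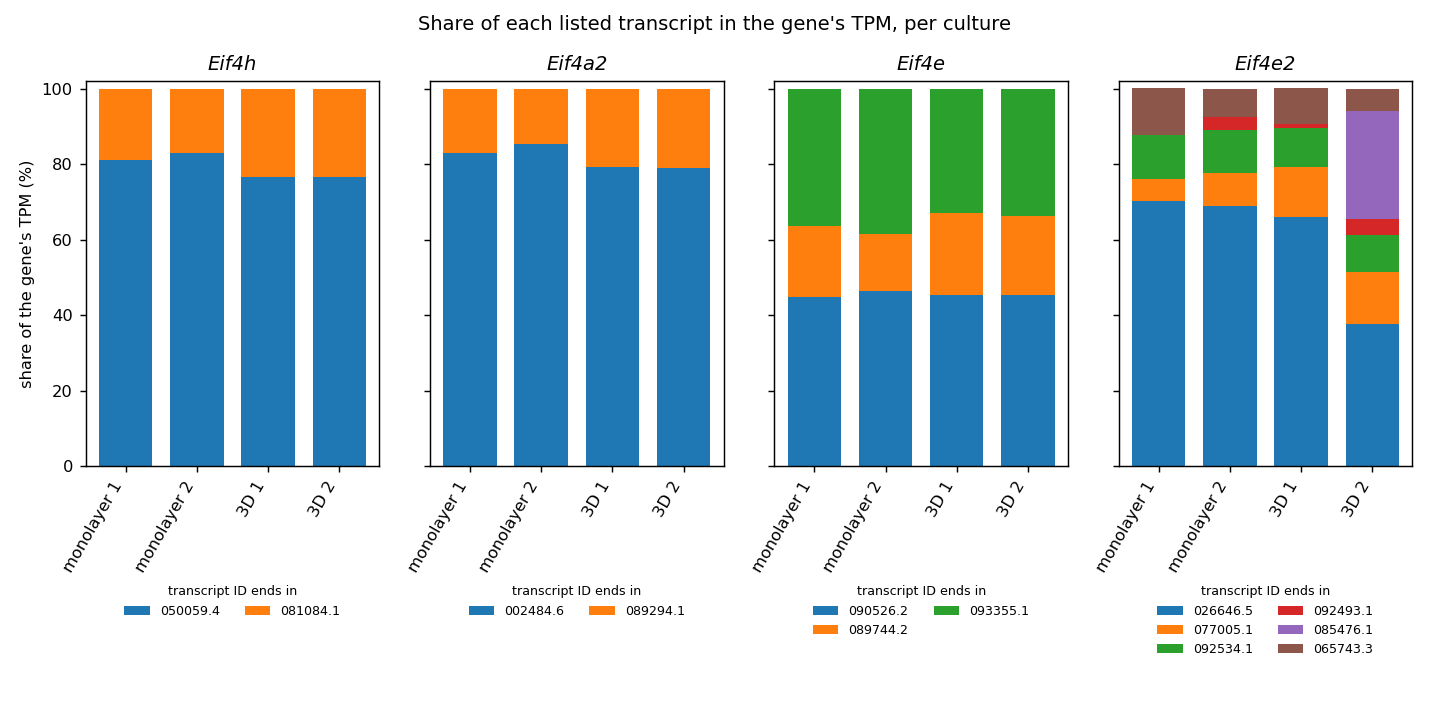
Share of each listed transcript in its gene's TPM (y axis, percent) in the 4 cultures, for Eif4h, Eif4a2, Eif4e and Eif4e2. The minor transcripts of Eif4h and Eif4a2 take a larger share in both 3D cultures, and the large shift in Eif4e2 is that of 3D replicate 2.

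Other genes of translation and its control, outside the name rule, were counted over a list of 44, all of which were tested. The list also holds mitochondrial, termination and recycling factors. Of these, 6 rose, 5 fell and 33 did not pass, a called share of 25.0% against 38.0% of all genes. Ppp1r15a, the GADD34 subunit that brings a phosphatase to eIF2 alpha, rose from 22.6 and 23.6 to 28.7 and 29.7 scaled TPM (log2 fold change 0.33, limma adjusted p = 0.0136). Eif2ak4, the kinase GCN2 that senses uncharged tRNA, rose from 6.56 and 6.19 to 8.05 and 7.66 scaled TPM (limma adjusted p = 0.0485). The kinase genes Eif2ak1, Eif2ak2 and Eif2ak3 did not pass. Atf4, whose translation rises when eIF2 is phosphorylated, was at 209 and 199.96 scaled TPM in monolayer and at 191 and 181 in 3D culture (limma adjusted p = 0.115). In the mTORC1 and MNK arm 3 of 11 genes rose and none fell. The called share was 27.3%, against 38.0% of all genes, of which 18.5% rose. The genes of this arm that rose were the S6 kinases Rps6kb2 (log2 fold change 0.49, limma adjusted p = 0.00611) and Rps6kb1 (0.22, adjusted p = 0.0454) and the TOP-binding protein Larp1 (0.23, adjusted p = 0.0341). Both 3D cultures lay above both monolayer cultures in 5 of the 11 genes and below them in 3, Akt1s1, Mknk1 and Mknk2. These shares were 37.3% and 38.2% over all genes. The groups of Rps6 overlapped. Mtor itself had a log2 change of -0.028.

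Among the 8 enzymes that make hypusine on eIF5A and diphthamide on eEF2, 3 fell and none rose. The called share of 37.5% is near the 38.0% of all genes, of which 19.5% fell. The hypusine enzymes Dhps and Dohh did not pass. In the diphthamide pathway Dph2, Dph3 and Dph5 fell, by 0.27, 0.24 and 0.39 on the log2 scale (limma adjusted p = 0.0334, 0.0478 and 0.0273). Dph1, Dph6 and Dph7 did not pass, with log2 fold changes of -0.12, 0.18 and 0.19. None of the 5 poly(A)-binding protein genes and partners passed in limma. An unadjusted p below 0.05 was found for 2 of them (40.0%), and for 50.6% of all genes. Pabpc1, the main poly(A)-binding protein, was at 543 and 537 scaled TPM in monolayer and 635 and 574 in 3D culture. Of 6 termination and recycling genes 1 fell, a called share of 16.7% against 38.0% of all genes. This was Mcts1, from 67.6 and 73.1 to 56.4 and 57.2 scaled TPM (log2 fold change -0.30, limma adjusted p = 0.0171). MCTS1 with DENR forms a relative of eIF2D, and Denr did not pass (limma adjusted p = 0.0631). Of the 7 factors of mitochondrial translation, Tufm, the mitochondrial counterpart of eEF1A, fell by 0.41 (limma adjusted p = 0.00610) and Gfm2 rose by 0.31 (limma adjusted p = 0.0191). Their called share was 28.6%, against 38.0% of all genes.

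The translation factors were set beside the other parts of the translation machinery, with no test between the lists. Over all genes tested, 38.0% were called, 18.5% as rises and 19.5% as falls. Of 65 cytosolic ribosomal protein genes, 29 fell (44.6%) and 1 rose, 46.2% being called, with a median log2 fold change of -0.23. Of 20 cytosolic aminoacyl-tRNA synthetase genes, 8 fell (40.0%, against 19.5% of all genes) and none rose, with a median of -0.17. Their called share in either direction, 40.0%, is near the 38.0% of all genes. The translation factors, with 27.1% called and a median of -0.10, had the smallest share of calls and the median nearest to 0 among these 3 lists.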

How the data were processed

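Messenger RNA of 4 cultures was sequenced as 75-base single-end reads of stranded libraries. Per the labels and methods, the authors checked the reads with FastQC 0.11.8, ran Salmon 1.2 on a reference of rn4 transcripts to which human insulin had been added, and deposited TPM per transcript, which sum to 1000000 in each sample. The files write decimal commas, and the values were read as such. TPM keep no depth, so no counting error or detection limit is given. The count test of the methods, DESeq2 on length-scaled counts, was not repeated, because counts were not used here.

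TPM were summed per symbol, and genes whose mean reached 1 TPM were kept. Samples were scaled with an unweighted TMM (trimming 30% on M and 5% on A from either tail, factors 0.960 to 1.02). In R 4.3.3, limma 3.58.1 was fitted to log2(TPM + 1) with eBayes and its trend option, with Benjamini-Hochberg adjustment over all 11960 genes. Fold changes on this scale are understated for low genes. The steps were also run on simulated TPM, in which far fewer genes changed than were called here. That run cannot show how far these calls hold. Scaled TPM are TPM divided by these factors, and shares use TPM as deposited.

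The members and lists were chosen with earlier results of these data known. Values per culture are given for the 10 largest rises and 10 largest falls among members that passed, the 5 most abundant members, the paralogue families and, in each role, the most abundant member that did not pass, 30 genes in all. Further members are named in single clauses. Alternatives were the scaling, filter, pseudocount, trend, replicate block, threshold and each culture left out in turn. Sequences are from RefSeq (GRCr8), which was used for no coordinate of the files.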

Additional observations from a re-analysis of the deposited data

How the results depend on the processing

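With all 4 cultures kept, the number of members that passed lay between 13 and 17 at an adjusted p below 0.05. With unscaled TPM, 5 rose and 12 fell, since Eef2 and Eif1 then passed as rises, and the summed TPM of all members in monolayer replicate 2 was 11747. At an adjusted p below 0.01, 0 rose, 2 fell, and 1418 of all genes passed. Leaving out 1 culture at a time, the rises ran from 0 to 3, the falls from 0 to 15 and the calls over all genes from 136 to 4515, with 136 and 1037 when a 3D culture was left out and 4515 and 3238 when a monolayer culture was. The cause was not tested. The 59 members were refitted under each setting (55 with a mean TPM of at least 5), and the sign changed in 8, none of them called. Eif4a1 was at -0.005 without a filter and between -0.019 and 0.078 with a culture left out, Eif4a2 was at 0.008, Eif2a at 0.001 and Eif3j at 0.018 without scaling, and Eif4g1 was at 0.040 without scaling, 0.001 with median-of-ratios scaling, 0.021 with a mean TPM of at least 5 and between -0.11 and 0.095 with a culture left out. With a culture left out, Eif3j ran from -0.058 to 0.010, Eif1a from -0.017 to 0.096, Eif2b3 from -0.007 to 0.135 and Eef1akmt4 from -0.410 to 0.122. The causes were not tested. Deviations of same-numbered cultures correlated at -0.006 across genes. With 2 cultures per group this value cannot show whether same-numbered cultures shared a day or batch. The replicate block called 2 rises and 15 falls among the members and 4814 genes in all, against 3, 13 and 4541 without it. With the block, the limma adjusted p of Eif4g3 was 0.0546.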
